A study of Mus musculus with 12 samples.

Results

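The small nucleolar RNA (snoRNA) host genes Snhg1, Snhg3, Snhg4, Snhg5, Snhg6, Snhg8, Snhg12, Snhg15 and Gas5 were followed through the prostate of a mouse cancer model. They are 9 of the 24421 genes listed in each library, and Snhg15 is listed there as Gm11974. The list was drawn up after Snhg6 had been seen to be higher in TRAMP than in wild type prostate and higher again in a tumor. Values from those groups therefore chose the genes, and they are given here as a description with no test.

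TRAMP mice (C57BL/6-Tg(TRAMP)8247Ng/J) carry the SV40 T antigens under the prostate-specific probasin promoter and develop prostate cancer, and wild type mice were C57BL/6. Ventral and dorsolateral prostate gave 11 of the 12 libraries: 2 from wild type mice at 24 weeks of age and 1 at 16 weeks, all on control AIN93M diet, and 2 from TRAMP mice for each combination of age (16 or 24 weeks) and diet. TRAMP mice ate either AIN93M alone or AIN93M to which 0.05% (w/w) PEITC had been added. PEITC is phenethyl isothiocyanate, which is found in cruciferous vegetables. The last library came from a TRAMP tumor of unknown lobe at 24 weeks on control diet, so the tumor and the 16-week wild type have no replicate and no error. The number of animals behind each library is not given by the labels, and p-values measure only the spread between these samples. The SV40 transgene was not analysed here.

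A snoRNA host gene is transcribed and spliced, and the snoRNAs are cut out of its introns. Box C/D snoRNAs guide methylation of ribose in ribosomal RNA, and box H/ACA snoRNAs guide the change of uridine to pseudouridine. The spliced exons of most of these hosts encode no conserved protein, and the spliced RNA of several is removed by nonsense-mediated decay, which links its level to translation. Many hosts start transcription within a run of pyrimidines, the terminal oligopyrimidine (TOP) start shared with genes of ribosomal proteins, and some hosts have been studied as long non-coding RNAs in cancer.

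The start sites are shown because they are what several of these hosts share beyond their snoRNAs. RefSeq (GRCm38.p6) gave promoter windows for 7 of the 9 genes, with 2 windows for Gas5. Each line below runs 5′ to 3′ from 45 bases before the annotated start to 30 bases from it, and capitals mark the longest pyrimidine run within 20 bases of the start and, where present, the letters TATA 20 to 40 bases before it.
Snhg1 promoter, chr19:8723442-8723516 (plus strand): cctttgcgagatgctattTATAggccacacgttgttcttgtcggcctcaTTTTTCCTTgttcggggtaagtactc
Snhg5 promoter, chr9:88522868-88522942 (minus strand): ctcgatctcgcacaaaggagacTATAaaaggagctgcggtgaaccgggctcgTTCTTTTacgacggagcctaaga
Snhg12 promoter, chr4:132308633-132308707 (plus strand): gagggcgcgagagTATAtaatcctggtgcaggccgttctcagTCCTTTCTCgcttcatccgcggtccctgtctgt
Snhg8 promoter, chr3:123508307-123508381 (minus strand): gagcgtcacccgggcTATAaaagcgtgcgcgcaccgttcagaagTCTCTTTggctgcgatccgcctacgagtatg
Gas5 promoter, chr1:161035121-161035195 (plus strand): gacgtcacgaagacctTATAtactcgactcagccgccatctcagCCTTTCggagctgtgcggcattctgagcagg
Snhg3 promoter, chr4:132353657-132353731 (minus strand): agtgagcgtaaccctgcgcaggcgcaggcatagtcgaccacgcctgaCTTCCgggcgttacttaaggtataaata
Snhg15 promoter, chr11:6528731-6528805 (minus strand): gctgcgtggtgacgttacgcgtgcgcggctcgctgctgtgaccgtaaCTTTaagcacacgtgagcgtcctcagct
A run of at least 6 pyrimidines together with TATA stood in the windows of Snhg1, Snhg5, Snhg12, Snhg8 and the second window of Gas5, that is in 5 of 8 windows. The run crossed the annotated start in Snhg12, Snhg8 and Gas5, beginning 3, 1 and 1 bases before it. In Snhg1 and Snhg5 it began only after the start, at bases 5 and 8, so the count covers runs near the start as well. Of all 32851 RefSeq promoter windows, 37.5% held such a run, 5.81% held TATA at that distance and 2.34% held both. The other Gas5 window, Snhg3 and Snhg15 held neither in the stretches searched, and their longest runs were 3, 5 and 4 pyrimidines. The letters tata in the Snhg3 line lie after its annotated start and were not counted. CACGTG, which reads the same on both strands, was found in the Snhg15 window (7.15% of all windows). TGACGT on either strand was found in the Snhg15 window and the second Gas5 window (7.51% of all windows). Both were searched over the whole promoter window of 300 bases, from 250 before the start to 50 from it. These letters were searched for after the sequences had been read, and a match is a description only.

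For Snhg6, the gene that led to the list, the start shown is that of Snhg6-203, the 1 of its 5 GENCODE M21 transcripts picked because it opens with pyrimidines, in capitals. From the same annotation on GRCm38, 1 snoRNA each of Snhg6 (Snord87), Gas5 (Snord47) and Snhg5 (Snord50a) is shown. The C box TGATGA and the D box CTGA of box C/D snoRNAs are in capitals. Snord22 of Snhg1 was read as well and is not shown, and it held CTGA near its end but no TGATGA.
Snhg6-203, first 40 bases: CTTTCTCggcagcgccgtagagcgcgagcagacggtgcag
Snord87, chr1:9942463-9942549 (minus strand): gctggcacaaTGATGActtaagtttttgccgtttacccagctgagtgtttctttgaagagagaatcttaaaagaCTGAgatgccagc
Snord47, chr1:161038082-161038158 (plus strand): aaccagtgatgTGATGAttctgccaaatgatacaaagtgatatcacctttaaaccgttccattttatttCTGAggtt
Snord50a, chr9:88521529-88521600 (minus strand): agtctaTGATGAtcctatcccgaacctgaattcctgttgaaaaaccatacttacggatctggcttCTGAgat

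In the annotation Snhg6 spans chr1:9941959-9944118 on the minus strand and holds 1 snoRNA locus. Gas5 (chr1:161034422-161038539, plus strand) holds 9 snoRNA loci and Snhg1 (chr19:8723475-8726443, plus strand) holds 8, while Snhg12 (chr4:132308623-132311024, plus strand) holds 4. Snhg3 (chr4:132348014-132353686, minus strand), Snhg5 (chr9:88521050-88522929, minus strand) and Snhg4 on chromosome 18 hold 2 each. Snhg8 (chr3:123507552-123508404, minus strand) and Snhg15 (chr11:6525591-6528760, minus strand) hold 1 each.

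All 9 host genes were expressed in every library. Snhg1, host of 8 snoRNAs, had the highest mean level per length (140.2 ± 29.6 FPKM, SD over 12 libraries), above 96.2% of tested genes, followed by Gas5 (69.6 ± 6.02) and Snhg3 (57.9 ± 9.47). Snhg8 (48.3 ± 5.08), Snhg12 (35.3 ± 4.29), Snhg6 (34.9 ± 10.6) and Snhg4 (29.5 ± 2.82) came next, and Snhg15 (17.2 ± 2.46) and Snhg5 (15.2 ± 4.99) were lowest. Between neighbours in this order, Snhg12 and Snhg6, Snhg6 and Snhg4, and Snhg15 and Snhg5 differed by less than the larger of their SDs. The length behind the FPKM, recovered from the values, was 2554 bases for Gas5, whose annotated transcripts without a retained intron run from 346 to 665 bases, and 20 of its 25 transcripts retain an intron. For Snhg8 the recovered length was 785 bases, against 448 to 528 for its annotated transcripts without a retained intron. The places of Gas5 and Snhg8 in the order depend on those lengths.

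Relative to the deepest library, depth was 0.635 to 0.694 in wild type, 0.699 in the tumor and 0.854 to 1 in 7 of 8 TRAMP prostates. Replicate 0 of the 16-week PEITC group, at 0.667, was the exception. The host genes held 149 (Snhg5 in wild type) to 5867 fragments (Gas5), which gives a counting error of at most 8.19%. Some cell marker lists separated the genotypes and others did not. The summed FPKM of 4 prostate secretory genes was 20783 to 23905 in wild type libraries, against 2644 to 5612 for TRAMP prostates and 1008 for the tumor. The sum of 3 basal cell genes was 46.9 to 56.4, 6.85 to 15.0 and 10.6, that of 3 smooth muscle genes 318.0 to 389.0, 113.0 to 291.0 and 105.0, and that of 4 macrophage genes 34.2 to 40.8, 57.6 to 190.0 and 155.0. The sum of 4 T cell genes was 2.09 to 4.22 in wild type, 5.43 to 14.3 across TRAMP prostates and 6.82 for the tumor. Wild type and TRAMP prostates overlapped for 4 luminal genes (1804 to 2255 against 1714 to 2086, with 2924 in the tumor) and for 3 fibroblast genes (126.0 to 166.0 against 55.1 to 160.0, with 105.0 in the tumor). They also overlapped for 3 endothelial genes (3.81 to 7.26 against 2.59 to 6.70, with 13.7 in the tumor) and for 4 B cell genes (0.433 to 0.684 against 0.561 to 4.51, with 1.53 in the tumor). The summed level of 10 proliferation genes was 94.7 to 129.0 for wild type libraries, 624.0 to 826.0 for TRAMP prostates and 712.0 for the tumor. None of these markers was at 0 throughout a group. The 16-week wild type library also held seminal vesicle genes (4 genes, summed FPKM 6467) that reached at most 7.17 elsewhere, where Svs6 was at 0 throughout the 24-week wild type and the tumor. The part of these shifts in the host gene values was not tested, and in bulk tissue fewer cells of a type and less RNA per cell cannot be told apart.

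Snhg6, host of Snord87, stood at 21.8 and 22.0 FPKM in 24-week wild type prostate and at 26.4 in the 16-week wild type. In TRAMP prostates on control diet it was 35.7 and 36.9 at 16 weeks and 35.4 and 43.2 at 24 weeks, and on PEITC diet 32.4 and 27.6 at 16 weeks and 37.6 and 39.4 at 24 weeks. The tumor had 60.7. Wild type, TRAMP prostate and tumor therefore did not overlap. At 24 weeks on control diet the mean was 39.3 ± 5.49 (SD, n = 2) in TRAMP against 21.9 ± 0.185 (n = 2) in wild type, a 1.79-fold ratio of means and a log2(FPKM + 1) difference of 0.81, and the tumor stood 1.54-fold above TRAMP.

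Snhg5, host of the Snord50 snoRNAs, had the largest relative spread. It was 9.86 and 6.65 FPKM in wild type at 24 weeks, 9.41 in wild type at 16 weeks, 13.6 to 19.4 (median 16.2) in the 8 TRAMP prostates and 25.5 in the tumor. The 24-week means were 16.9 ± 0.968 in TRAMP and 8.26 ± 2.27 in wild type (n = 2 each), a 2.04-fold ratio and a log2 difference of 0.97, with the tumor 1.51-fold above TRAMP. Again no library of 1 kind reached the range of the next.

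Snhg1 followed the same order from a higher base. It measured 95.1 and 94.0 FPKM in wild type at 24 weeks, 113.9 at 16 weeks, 128.3 to 161.5 (median 152.3) across TRAMP prostates and 199.0 in the tumor. At 24 weeks TRAMP had 153.3 ± 0.753 and wild type 94.5 ± 0.776 (n = 2 each), 1.62-fold by means and 0.69 on the log2 scale. These were the 3 of 9 host genes in which wild type lay below every TRAMP prostate and the tumor above all of them, an order found in 7.12% of tested genes. Snhg6 led to the list through such a rise, so it is among the 3 by choice and the count cannot serve as a test against that share. The reverse order held for 0 host genes and 9.72% of tested genes. Without the 16-week wild type library the count was also 3, against 8.65% of tested genes.

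Snhg12, which carries Snord99 and H/ACA snoRNAs, was higher in TRAMP than in wild type by a smaller amount. It had 32.0 and 27.6 FPKM in wild type at 24 weeks, 33.0 at 16 weeks, 31.7 to 42.6 (median 35.7) across TRAMP prostates and 42.0 in the tumor. The 8 TRAMP prostates overlapped wild type through the PEITC group at 16 weeks, but the control diet groups did not overlap at 24 weeks (35.5 ± 1.52 against 29.8 ± 3.15, n = 2 each, log2 difference 0.25). In this 24-week comparison 4 of 9 host genes were higher without overlap (Snhg1, Snhg5, Snhg6 and Snhg12), as were 36.7% of tested genes, a nearby share. Only 1 (Snhg3) was lower, as were 36.5% of tested genes. Snhg6 is among the 4 through the choice of the list, so the count is no test against that share. The same holds for the counts with Snhg6 in the other described comparisons below.

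**Figure D1:**
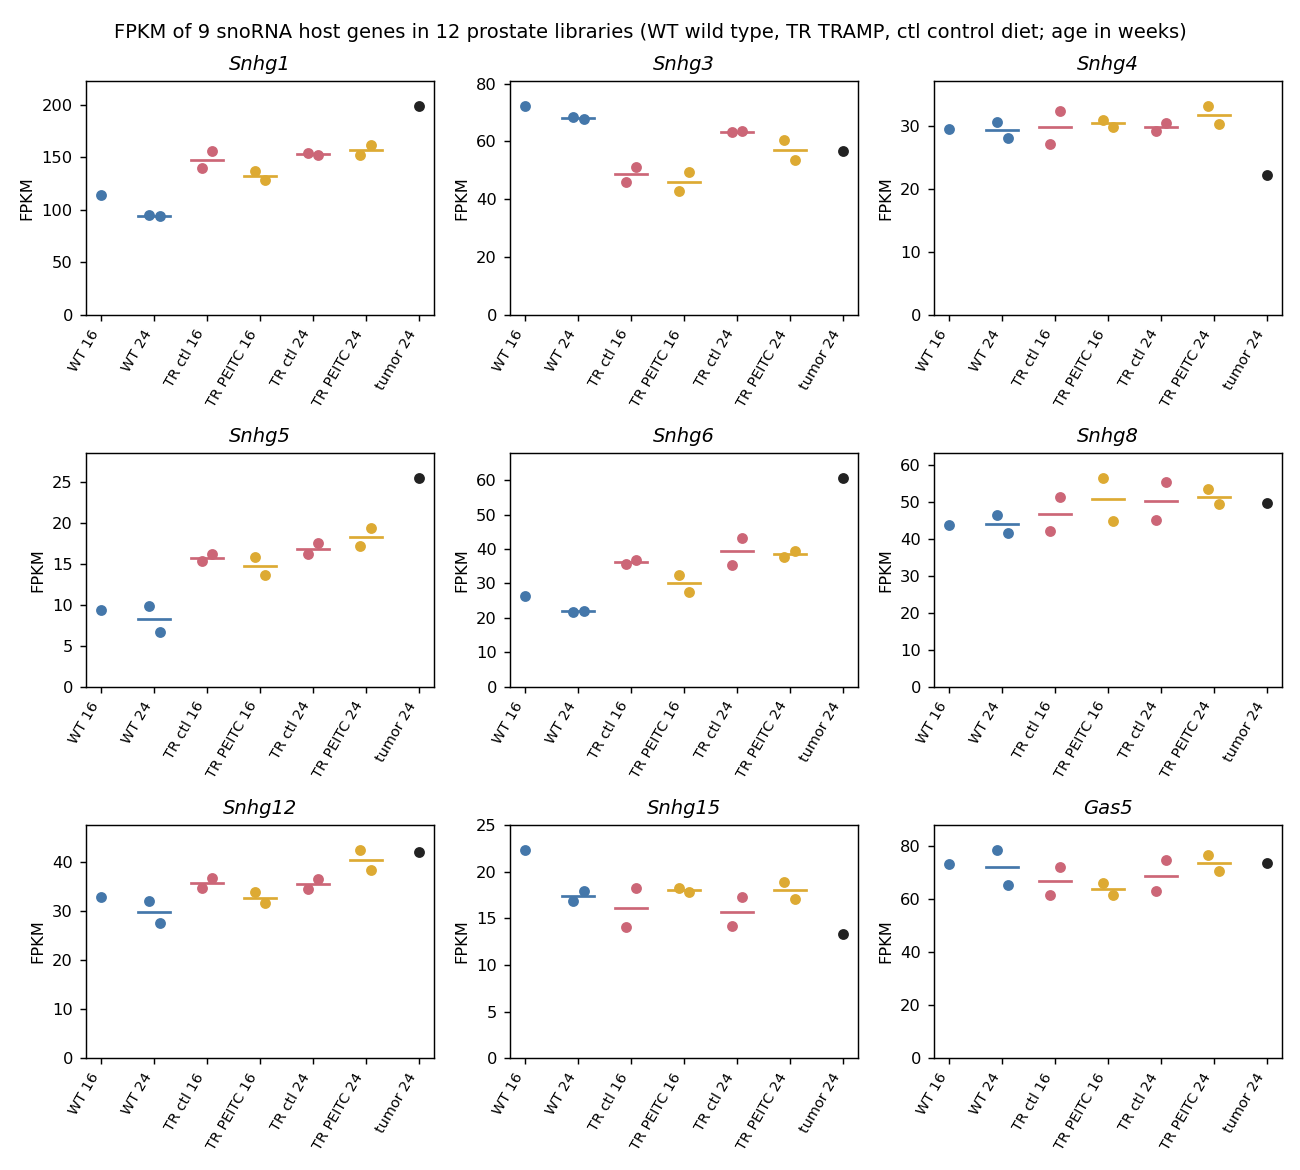
FPKM of each host gene (y axis, from 0) in the 12 libraries, grouped on the x axis by genotype, diet and age in weeks. Each point is 1 library and each bar the mean of 2. Snhg1, Snhg5 and Snhg6 step up from wild type to TRAMP to tumor, and Gas5, Snhg4 and Snhg8 overlap between wild type and TRAMP. Snhg3 is higher in every wild type library than in any TRAMP prostate on this scaling. That separation is lost after quantile normalization or when scaling omits the 50 most abundant genes.

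Gas5, Snhg4 and Snhg8 overlapped between wild type and TRAMP prostates. Gas5 was 65.3 to 78.5 FPKM in wild type, 61.3 to 76.4 across TRAMP prostates and 73.6 in the tumor. Snhg8, host of Snora24, was 41.7 to 46.4 in wild type, 42.1 to 56.5 across TRAMP prostates and 49.6 in the tumor. Snhg4 was 28.0 to 30.7 in wild type and 27.1 to 33.1 in TRAMP prostates, while the tumor, at 22.2, lay below all other libraries. Snhg15, host of an H/ACA snoRNA, was also lowest in the tumor (13.4), against 14.1 to 18.9 in TRAMP prostates and 16.9 to 22.4 in wild type. Snhg4 and Snhg15 were thus the 2 host genes with their lowest value in the tumor, which held for 23.4% of tested genes. The tumor was the highest library in 3 (Snhg1, Snhg5 and Snhg6), against 20.3%, with Snhg6 among them through the choice of the list.

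Snhg3 carries the H/ACA snoRNAs that act in cleavage of the ribosomal RNA precursor, and it went the other way on the deposited scale. Wild type had 68.5 and 67.9 FPKM at 24 weeks and 72.2 at 16 weeks. TRAMP prostates on control diet had 46.1 and 51.1 at 16 weeks and 63.1 and 63.5 at 24 weeks, those on PEITC diet 42.9 and 49.3 at 16 weeks and 60.5 and 53.5 at 24 weeks, and the tumor 56.7. All 8 TRAMP prostates lay below all 3 wild type libraries, the only host gene to do so (21.3% of tested genes did). In 3 host genes (Snhg1, Snhg5 and Snhg6) they lay above them (23.0%), Snhg6 being the gene that led to the list. At 24 weeks the difference of Snhg3 was -0.11 on the log2 scale and was the single lower call without overlap (36.5% of tested genes). It became 0.0036 when scaling omitted the 50 most abundant genes, and neither that scaling nor quantile normalization left any host gene with all TRAMP prostates below wild type. At 16 weeks the difference was -0.56. Omitting the abundant genes moved the median of all tested genes there from 0.02 to 0.12.

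The 16-week comparison of control diet TRAMP with wild type rests on 1 wild type library, the one that also held seminal vesicle genes (summed FPKM 6467). All 16-week counts against wild type, those of the gene lists below included, use this library. The part of the seminal vesicle tissue in them was not tested. In it Snhg5 differed by 0.69, Snhg6 by 0.45, Snhg1 by 0.37 and Snhg12 by 0.11 on the log2 scale, 4 host genes higher without overlap against 44.2% of tested genes. Snhg3, Snhg15 (-0.46) and Gas5 (-0.13) were lower without overlap, against 40.4%.

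From TRAMP prostate on control diet to tumor at 24 weeks, Snhg6 differed by 0.62, Snhg5 by 0.57, Snhg1 by 0.37 and Snhg12 by 0.24 on the log2 scale. These 4 were higher without overlap (38.5% of tested genes were). Snhg4 (-0.41), Snhg15 (-0.21) and Snhg3 (-0.15) were lower without overlap (41.0% of tested genes). From wild type to tumor, Snhg5 differed by 1.54 (3.09-fold by means), Snhg6 by 1.43 (2.77-fold) and Snhg1 by 1.07 (2.10-fold), and 5 host genes were higher without overlap (45.5% of tested genes) and 3 lower (44.4%). Since 1 tumor was sequenced, these differences have no replicate check on the tumor side, and the 4 described comparisons share libraries.

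**Figure D2:**
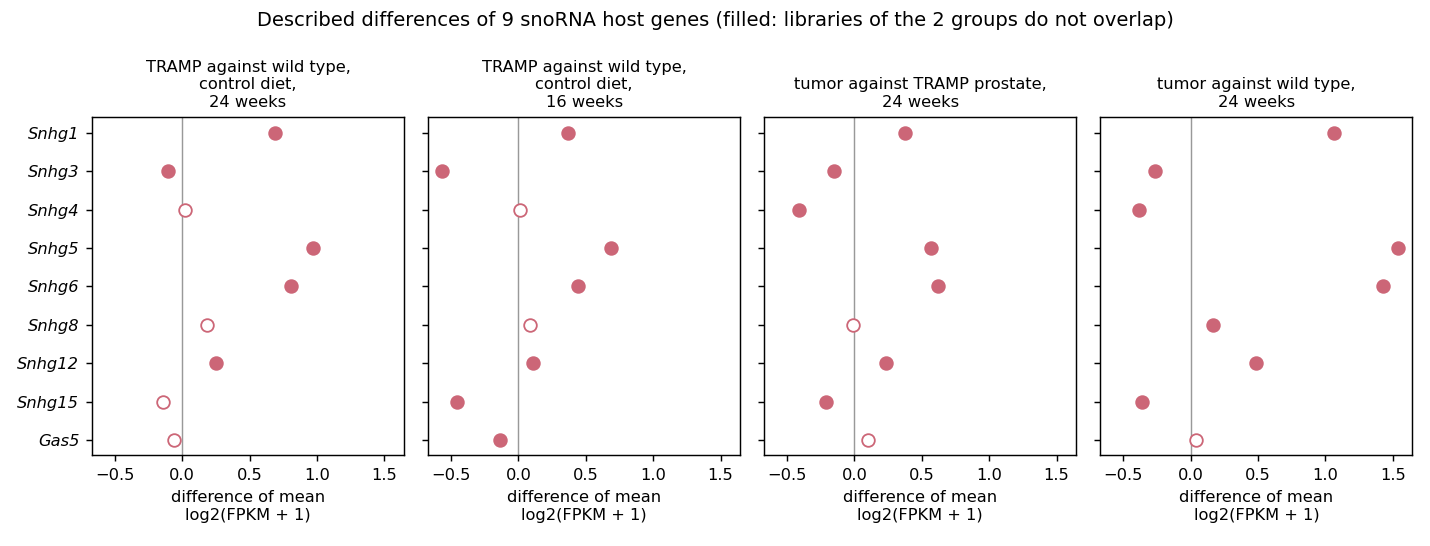
Difference of mean log2(FPKM + 1) (x axis) for each host gene (y axis) in the 4 comparisons of wild type, TRAMP prostate and tumor, with filled points where the libraries of the groups do not overlap. Snhg5, Snhg6 and Snhg1 lie farthest to the right in each panel, from 0.37 to 1.54, and Snhg3 is left of 0 in all 4 on this scaling, with a value of 0.0036 at 24 weeks against wild type when scaling omits the 50 most abundant genes.

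Snhg3 overlaps Rcc1 on the same strand over 5592 of its 5673 bases. Rcc1 encodes the guanine nucleotide exchange factor of the GTPase Ran. Rcc1 had 7.61 to 8.35 FPKM in wild type, 12.7 to 16.3 across TRAMP prostates and 15.7 in the tumor, so wild type lay below all other libraries. At 24 weeks on control diet it was 13.5 ± 0.0464 in TRAMP against 7.98 ± 0.520 in wild type (n = 2 each), a log2 difference of 0.69, opposite in sign to Snhg3 on the deposited scale. How fragments in the overlap were assigned is not given in the sources used here, so both values are uncertain.

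**Figure D3:**
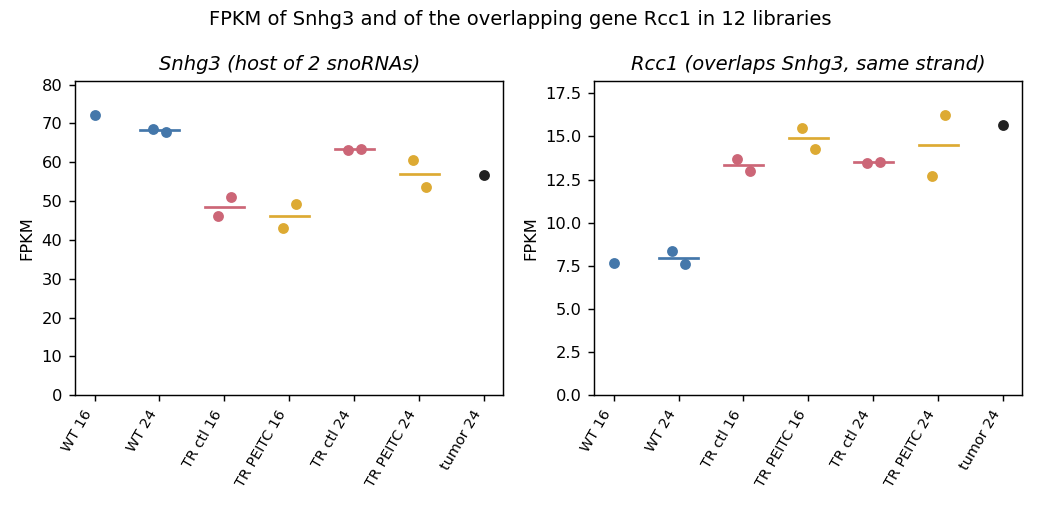
FPKM (y axes, from 0) of Snhg3 and of Rcc1, which overlaps it on the same strand, in the 12 libraries, with points for libraries and bars for means of 2. Rcc1 is 7.61 to 8.35 in wild type and at least 12.7 elsewhere, while Snhg3 is 67.9 to 72.2 in wild type and at most 63.5 elsewhere on the deposited scaling, a gap that the other scalings do not keep.

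Other neighbours overlap less. Zbtb37 runs opposite to Gas5 (428 bases of overlap) at 0.382 to 1.03 FPKM, and Mcmdc2 runs opposite to Snhg6 (127 bases) at 0 to 0.0387, and without the strand setting of the counting such fragments cannot be told apart. Slc3a2, a subunit of amino acid transporters, starts next to Snhg1 on the other strand and was 56.1 to 63.2 in wild type, 63.8 to 90.0 across TRAMP prostates and 88.0 in the tumor. The snoRNAs themselves were barely covered. Snord87 inside Snhg6 had 0 to 3 fragments a library, Snora24 inside Snhg8 was listed at 0 in all 12, and Snord22 inside Snhg1, the best covered of the 9 listed, had 8 to 49 fragments. Their levels were not compared.

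The 5 genes whose log2(FPKM + 1) followed Snhg6 most closely over the 12 libraries were Enho (Pearson r 0.98), Alad (0.98), Snrpe (0.97), Nostrin (0.97) and Sec14l2 (0.96). Snrpe encodes a core protein of spliceosomal snRNPs, Alad an enzyme of heme synthesis and Enho the secreted peptide adropin. Snrpe averaged 50.6 FPKM in wild type, 68.2 across TRAMP prostates and 95.4 in the tumor. The libraries share genotype and age across genes, so these r values describe this set of samples only.

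The machinery around snoRNAs was counted in the same described comparisons, where 36.7% of all tested genes were higher and 36.5% lower without overlap in TRAMP at 24 weeks. Among other non-coding hosts, 5 of 12 were higher in TRAMP than in wild type at 24 weeks without overlap and 0 lower, with a median log2 difference of 0.24 against -0.0007 for all tested genes, so the share of higher genes was near that of all genes. After quantile normalization 4 were higher and 2 lower (median 0.18). At 16 weeks, against 1 wild type library, 4 of the 12 were higher and 7 lower (median -0.07), where 44.2% of all tested genes were higher and 40.4% lower. Those higher at 24 weeks included Zfas1 (97.0 against 61.1 FPKM), Snhg9 (4.64 against 1.99) and Snhg16 (5.22 against 3.16). Against TRAMP prostate the tumor had 5 of these 12 higher and 6 lower (38.5% and 41.0% of all tested genes), Snhg18 being higher (15.0 against 7.31) and Snhg10 lower (2.96 against 5.53).

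Of the 9 snoRNP core proteins, 7 were higher in TRAMP at 24 weeks and 2 lower (median 0.31), where 36.7% of all tested genes were higher and 36.5% lower. At 16 weeks the counts were again 7 and 2 (median 0.13), where the shares of all tested genes were 44.2% and 40.4%. Nop56 and Nop58, scaffold proteins of box C/D particles, stood at 49.3 against 29.4 and 46.1 against 34.4 FPKM, and Gar1 of the H/ACA particles at 37.8 against 27.5. Assembly factors had 7 of 12 higher and 0 lower (median 0.19; 5 higher and 2 lower after quantile normalization), and 9 higher and 0 lower at 16 weeks (8 and 2 after quantile normalization). At 24 weeks they included Pih1d1 (29.9 against 17.5) and the ATPase gene Ruvbl2 (35.5 against 23.5). Of 23 ribosome biogenesis factors, 7 were higher and 5 lower at 24 weeks (median 0.016), both shares below those of all tested genes. The counts became 14 and 1 when scaling omitted the 50 most abundant genes, and 8 and 8 after quantile normalization. At 16 weeks 18 of the 23 were higher and 0 lower (median 0.19), or 16 and 4 after quantile normalization. At 24 weeks Tcof1, a factor for ribosomal RNA transcription, was higher (11.8 against 7.24).

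Several of the hosts that encode proteins are ribosomal protein genes, such as Rpsa and Rpl13a, and the host Eef2 is also among the TOP genes. The lists in this paragraph therefore count some genes more than once. Without overlap, 36.7% of all tested genes were higher and 36.5% lower in TRAMP at 24 weeks. Of 26 coding hosts, 3 were higher and 19 lower (median -0.30; 5 and 10 after quantile normalization), Nop56 being among the higher and Eef2, the translocation factor of translation, among the lower (1104 against 1505 FPKM). Of 77 tested ribosomal protein genes, 0 were higher and 63 lower (median -0.28), for example Rps25 at 258.9 against 367.6. After quantile normalization 18 were higher and 25 lower, and the median was -0.04. Of 15 TOP genes of translation outside the ribosome, 1 was higher and 14 lower (median -0.31; 4 and 7 after quantile normalization), with Eef1a1 at 1674 against 2461. At 16 weeks, where 44.2% of all tested genes were higher and 40.4% lower, the counts were 4 and 19 for coding hosts, 2 and 73 for ribosomal protein genes and 4 and 10 for TOP genes. After quantile normalization they were 12 and 8, 29 and 33, and 8 and 4. In the tumor against TRAMP prostate the counts were 68 of 77 ribosomal protein genes higher and 3 lower, 20 of 26 coding hosts higher and 2 lower, and 10 of 15 TOP genes higher and 1 lower, where 38.5% of all tested genes were higher and 41.0% lower.

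Of 15 nonsense-mediated decay factors, 7 were higher and 4 lower at 24 weeks (median 0.05), where 36.7% of all tested genes were higher and 36.5% lower. At 16 weeks 9 were higher and 2 lower (median 0.06; 44.2% and 40.4% of all tested genes), and in the tumor against TRAMP prostate 9 were higher and 4 lower (38.5% and 41.0%). At 24 weeks Smg9, of the complex that controls the decay kinase, was lower in TRAMP than in wild type (23.5 against 38.4 FPKM). The MYC family and partners had 1 of 6 tested members higher and 3 lower at 24 weeks, and 3 and 3 at 16 weeks. All 10 proliferation genes were higher in TRAMP at 24 weeks (median 2.83) and at 16 weeks (2.41). These list counts belong to the same groups that chose the host genes and carry no test.

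**Figure D4:**
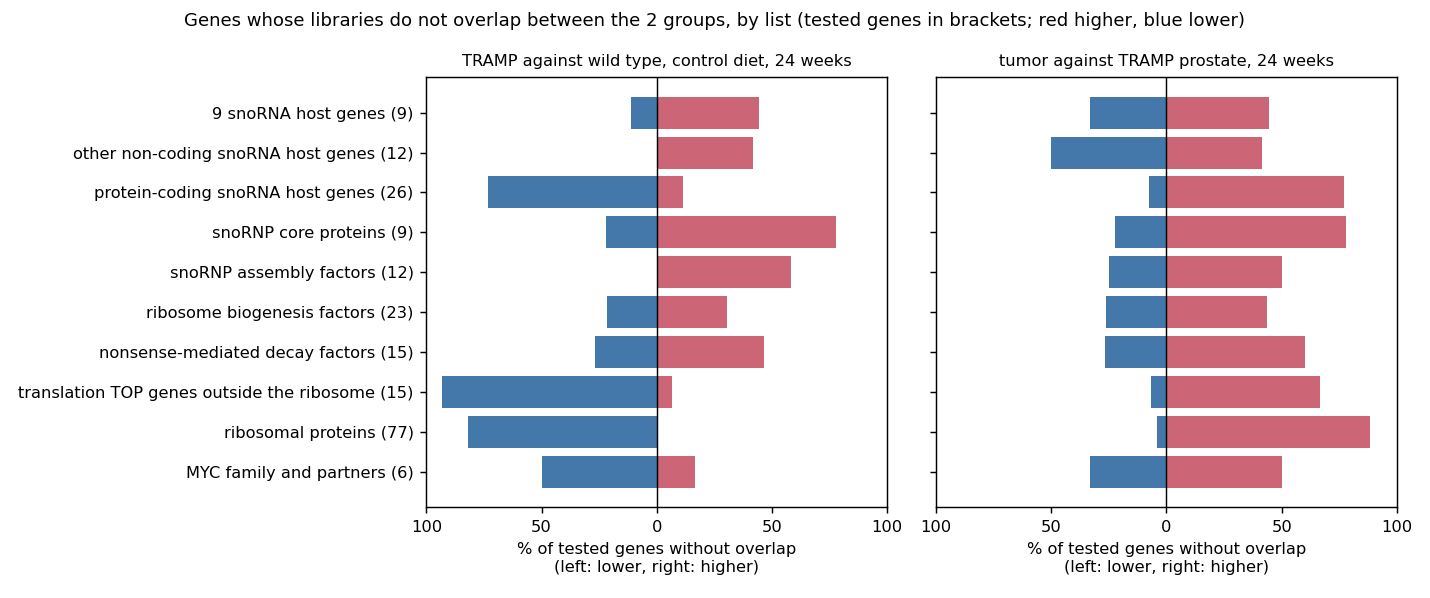
Share of each list's tested genes (x axis, percent; number tested in brackets) whose libraries lay all above (red, right) or all below (blue, left) those of the second group, for TRAMP against wild type and tumor against TRAMP prostate at 24 weeks. Ribosomal protein genes, TOP genes and coding hosts, lists that share some genes, point left in the first panel and right in the second. That lean shrinks in the first panel after quantile normalization (18 higher and 25 lower of 77 ribosomal protein genes).

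The diet and age comparisons within TRAMP prostates were not used to choose the genes and were tested with limma. At 24 weeks the differences between PEITC and control diet ran from -0.15 (Snhg3) to 0.19 (Snhg15) on the log2 scale. Snhg12 was 42.6 and 38.4 FPKM on PEITC against 34.5 and 36.6 on control diet, a log2 difference of 0.18 (SE 0.09, 95% interval -0.02 to 0.38, adjusted p = 0.551). It was the 1 host gene higher without overlap (23.7% of tested genes), and Snhg3 (-0.15, adjusted p = 0.612) was the 1 lower (20.8%). Snhg6 differed by -0.02 (95% interval -0.26 to 0.21). Limma called 0 of 9 host genes (0.0% of tested genes were called) and 0 of 9 had an unadjusted p under 0.05, against 9.47% of tested genes. Without replicate 0 of the 24-week PEITC group the Snhg12 difference was 0.11, and without either PEITC library 1 host gene had an unadjusted p under 0.05. The 9 intervals together ran from -0.35 to 0.49.

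At 16 weeks Snhg6 was lower on PEITC, at 32.4 and 27.6 FPKM against 35.7 and 36.9, without overlap. The log2 difference was -0.27 (SE 0.10, 95% interval -0.51 to -0.03, unadjusted p = 0.0298, limma), and it did not pass adjustment over all tested genes (adjusted p = 0.455). Snhg1 (-0.15, adjusted p = 0.495) and Snhg12 (-0.12, adjusted p = 0.649) were also lower without overlap, 3 host genes in all against 21.2% of tested genes, and 0 were higher (21.0%). Limma called 0 of 9 (0.00748% of tested genes), and Snhg6 was the 1 with an unadjusted p under 0.05 (10.1% of tested genes). Without replicate 1 of the 16-week PEITC group the Snhg6 difference was -0.16 and 0 host genes had an unadjusted p under 0.05, and without replicate 0 of that group it was -0.38 and 2 did. Over both ages the PEITC difference of Snhg6 was -0.15 (95% interval -0.31 to 0.02, adjusted p = 0.735), limma called 0 of 9 (0.0%) and 0 of 9 had an unadjusted p under 0.05 (6.65%), or 0 to 1 with 1 library left out.

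Whether the PEITC difference itself changed with age was tested as an interaction. Snhg12 had the largest value, 0.30 (SE 0.12, unadjusted p = 0.0381, adjusted p = 0.367, limma), being higher on PEITC at 24 weeks and lower at 16 weeks, and Snhg6 had 0.25 (95% interval -0.09 to 0.58). Limma called 0 of 9 (0.00748% of tested genes), with 1 of 9 at an unadjusted p under 0.05 against 12.9%. That count was 0 without replicate 1 of TRAMP control or of TRAMP PEITC at 16 weeks and without replicate 0 of either 24-week group. It was 2 without replicate 0 of either 16-week group or replicate 2 of TRAMP control at 24 weeks.

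With age on control diet, Snhg3 was higher, at 63.1 and 63.5 FPKM at 24 weeks against 46.1 and 51.1 at 16 weeks. Its log2 difference was 0.38 (SE 0.09, 95% interval 0.18 to 0.58, unadjusted p = 0.00252), with an adjusted p of 0.178 by limma. Snhg3 and Snhg5 (0.09) were the 2 host genes higher without overlap (21.5% of tested genes), and 0 were lower (24.8%). Limma called 0 of 9 (0.00748%), and Snhg3 alone of the 9 had an unadjusted p under 0.05 (16.9% of tested genes), the count being 2 without replicate 0 of the 24-week group.

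With age on PEITC diet, 6 of 9 host genes were higher at 24 weeks without overlap, against 22.0% of tested genes, and 0 were lower (26.1%). Snhg6 had 37.6 and 39.4 FPKM at 24 weeks against 32.4 and 27.6 at 16 weeks, a log2 difference of 0.35 (SE 0.10, 95% interval 0.12 to 0.59). Snhg3 had 60.5 and 53.5 against 42.9 and 49.3 (0.30), Snhg12 42.6 and 38.4 against 33.8 and 31.7 (0.29), and Snhg1 151.9 and 161.5 against 137.0 and 128.3 (0.24). These 4 had unadjusted p-values of 0.00885, 0.0086, 0.00928 and 0.00794, where 8.04% of tested genes were under 0.05, and each had an adjusted p of 0.555. The 4 host genes with an unadjusted p under 0.05 became 1 without replicate 1 of the 16-week group, 2 without replicate 0 of the 24-week group, and 3 without either of the other two libraries. Snhg5 (0.30) and Gas5 (0.20) were the other two without overlap. Limma called 0 of 9 (0.0% of tested genes). The median of the 9 differences was 0.24 against -0.0038 for all tested genes, and that of the 12 other non-coding hosts was 0.31, with 0 called. Several host genes varied together over the 8 TRAMP prostates, so the 6 without overlap are not 6 separate results. Pearson r of pairs ran from -0.074 (Snhg3 and Snhg15) to 0.869 (Snhg1 and Snhg5). The shallow PEITC library (replicate 0 at 16 weeks) is 1 of the 2 at 16 weeks, and without it the adjusted p-values of all 9 host genes were above 0.05 as well. The PEITC libraries at each age also enter the diet comparisons, so these results are not independent of them.

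**Figure D5:**
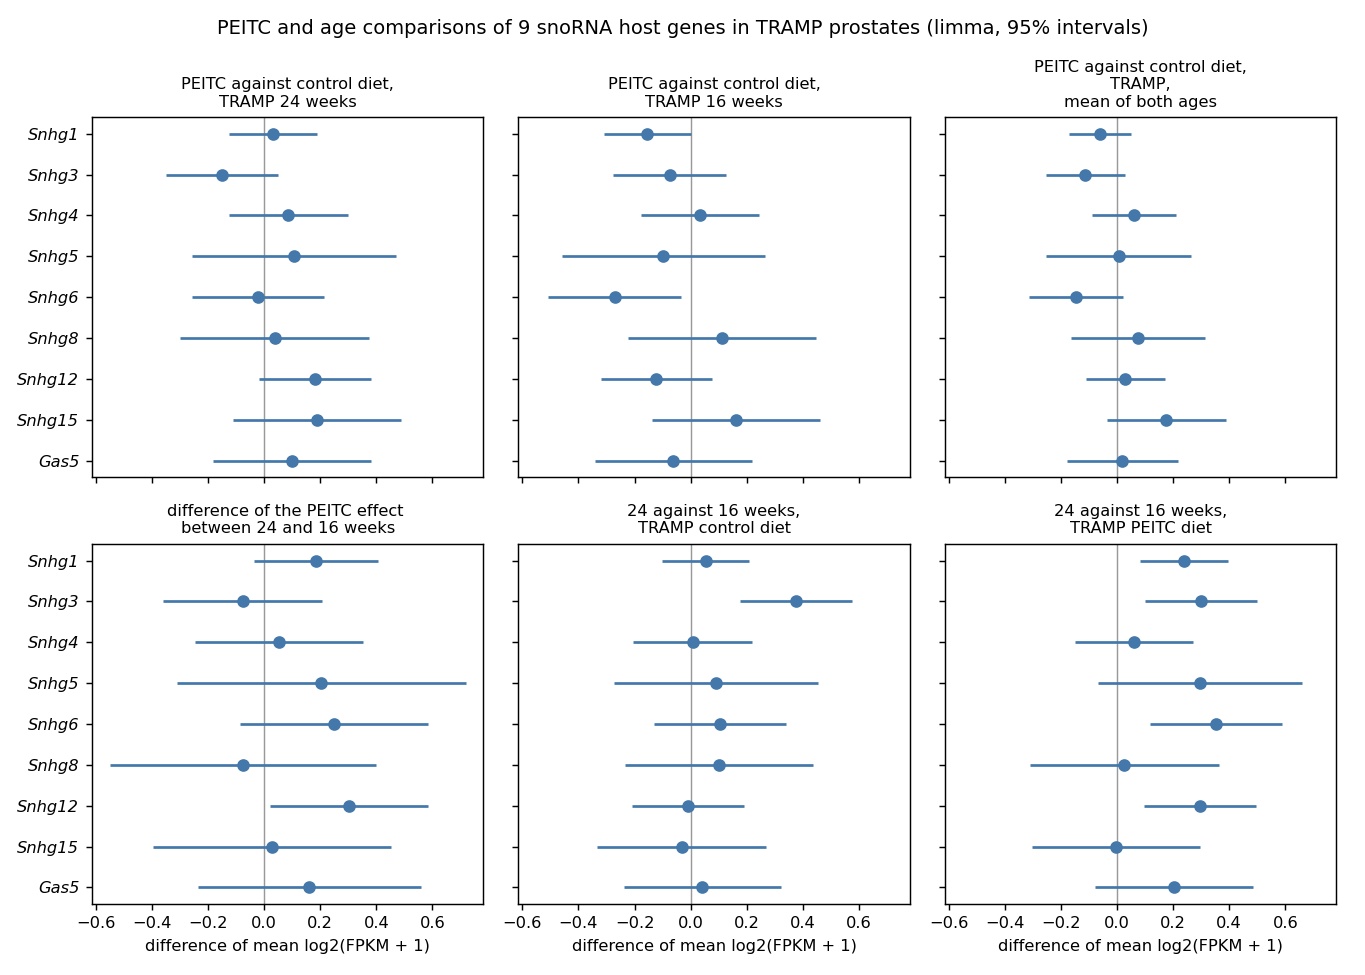
Difference of mean log2(FPKM + 1) (x axis) with its 95% interval from limma for each host gene (y axis) in the 6 diet and age comparisons. Most intervals span 0, and the 4 host genes whose intervals lie above it with age on PEITC diet (Snhg1, Snhg3, Snhg6 and Snhg12) have an adjusted p of 0.555.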

How the data were processed

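RNA sequencing of total RNA was available as 12 deposited tables of FPKM, which are fragment counts scaled by gene length and library total. The submitters' processing notes name the mm10 build and the tools DESeq2, featureCounts, HISAT2 and Picard, with neither versions nor roles. Not given in the sources used here are the annotation, the strand setting and the library total. Depth and gene lengths were recovered from the step between FPKM values (whole fragments, to within 0.0019, for the 9 host genes).

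On the log2(FPKM + 1) scale, 13375 genes with a minimum mean of 0.5 FPKM, all 9 host genes among them, were fitted with limma 3.58.1 in R 4.3.3 (7 group means, 5 residual degrees of freedom, intensity trend, two-sided p adjusted by Benjamini-Hochberg over all tested genes, called under 0.05), after a test on simulated data. The members, lists and tests were chosen with earlier results of these data known. Motif settings, the Snhg6 transcript, the snoRNAs shown, the recovery of fragments and the orderings over 12 libraries were chosen after sequences or values were seen. Named genes were the 9 hosts, their neighbours, up to 4 genes with the largest difference in each list and snoRNA genes inside the hosts. The 5 tested genes outside the 9 hosts that were most like Snhg6 were named too. Loci and transcripts came from GENCODE M21 (GRCm38, the assembly of mm10). Alternatives were pseudocounts of 0.1 and 5, no filter or a mean of 2 FPKM, 2 other scalings, a fit on only the groups compared, no intensity trend, a replicate block and each library left out. Figures used Python 3.11.15 and matplotlib 3.10.9.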

Additional observations from a re-analysis of the deposited data

How the results depend on the processing

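No host gene was called in any of the 6 diet and age comparisons under any setting run, and the lowest adjusted p of a host gene was 0.153. Of the 54 differences, 24 kept their direction throughout. Under quantile normalization the PEITC difference of Snhg6 at 24 weeks became 0.014, and with age Snhg12 on control diet became 0.0041 (0.0079 when scaling omitted the 50 most abundant genes) and Snhg15 on PEITC diet 0.014 (0.021). The labels do not say what a shared replicate number means. Replicate 0 minus 1 differences correlated from -0.31 to 0.282 between groups, which cannot settle whether some groups share a pairing. With a replicate block, which leaves the lone replicate 2 of TRAMP control at 24 weeks without weight, 0 host genes were called in each comparison. The block turned Snhg6 to 0.13 for PEITC at 24 weeks and Snhg8 to 0.11 for the interaction. With age on control diet it gave Snhg4 -0.031, Snhg5 -0.023, Snhg6 -0.046, Snhg8 -0.081 and Gas5 -0.11. Calls over all genes, 0 to 1 as reported, were 24 to 74 with no filter. With the block they were 65 for PEITC at 24 weeks, 99 for age on control diet, 49 for the interaction and 3 for both ages. Without TRAMP control 24 weeks replicate 2 they were 160, 260, 124 and 5. Without TRAMP PEITC 24 weeks replicate 0 they were 25 (PEITC at 24 weeks), 24 (age on PEITC diet), 14 and 16. With a pseudocount of 0.1, the count for PEITC at 16 weeks was 2; the cause was not tested.

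Leaving out single libraries turned small differences. For PEITC at 24 weeks, the range was -0.013 to 0.075 for Snhg1, -0.16 to 0.12 for Snhg6, -0.11 to 0.18 for Snhg8 and -0.023 to 0.22 for Gas5. At 16 weeks, it was -0.17 to 0.022 for Snhg3, -0.091 to 0.16 for Snhg4, -0.20 to 0.0063 for Snhg5, -0.05 to 0.28 for Snhg8, -0.015 to 0.34 for Snhg15 and -0.18 to 0.052 for Gas5. Over both ages, it was -0.0029 to 0.12 for Snhg4, -0.046 to 0.057 for Snhg5, -0.0064 to 0.16 for Snhg8, -0.0071 to 0.066 for Snhg12 and -0.043 to 0.0795 for Gas5. For the interaction, it was -0.17 to 0.021 for Snhg3, -0.072 to 0.18 for Snhg4, -0.24 to 0.087 for Snhg8 and -0.15 to 0.20 for Snhg15. With age on control diet, it was -0.028 to 0.13 for Snhg1, -0.12 to 0.13 for Snhg4, -0.034 to 0.24 for Snhg6, -0.043 to 0.25 for Snhg8, -0.051 to 0.034 for Snhg12, -0.21 to 0.14 for Snhg15 and -0.081 to 0.16 for Gas5. On PEITC diet, it was -0.0012 to 0.12 for Snhg4, -0.14 to 0.19 for Snhg8 and -0.072 to 0.064 for Snhg15.

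Of the described values, Snhg3 in TRAMP against wild type at 24 weeks became 0.0036 when scaling omitted the 50 most abundant genes. The count of host genes with all TRAMP prostates below wild type was then 0, as it was under quantile normalization, from 1 (Snhg3). The orderings under other scalings were tried after the data had been seen. The 5 host genes without overlap in TRAMP against wild type at 24 weeks became 6 to 8 with 1 library left out, the most without wild type replicate 0, since fewer libraries overlap less. A lone library was assumed to vary like the other groups. The tumor and the 16-week wild type could not be left out of the comparisons that rest on them. The 16-week wild type was left out only of the orderings over 12 libraries.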
